A study of Homo sapiens with 16 samples.

Results

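The genes described here encode the subunits of the proteasome and the proteins that assemble, activate or inhibit it, and they were followed through the response of 2 human glioblastoma cell lines to the microRNA miR-137. They were taken as every gene whose symbol begins with PSMA, PSMB, PSMC, PSMD, PSME or PSMF followed by a digit, with PSMB8 and PSMB9 not analysed here. The rule found 43 genes, of 20314 genes in the U251 count tables and 20626 in the U343 count tables. By the roles assigned to them they were 8 alpha and 9 beta subunits of the 20S core, 6 ATPases and 11 non-ATPase subunits of the 19S cap, 3 assembly factors of that cap, 4 activators and 1 inhibitor. The remaining gene, PSMC3IP, matched by its symbol alone, since it encodes a meiotic recombination factor that binds PSMC3 and no proteasome subunit. Together the 43 genes took between 0.723% and 1.05% of the reads of a library.

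The proteasome is the protease that degrades most short-lived and misfolded proteins of the cell after they have been tagged with ubiquitin. Its core is a barrel of alpha and beta rings with the cutting sites on PSMB5, PSMB6 and PSMB7, and the 19S cap recognises, unfolds and feeds in the substrate. In cells exposed to interferon the cutting sites can be exchanged for inducible ones, PSMB7 for PSMB10 among them, to give the immunoproteasome, and a ring of PSME1 and PSME2 can replace the cap. Both changes are known for altering which peptides are made for presentation to T cells.

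The study asked how raised miR-137, a brain-enriched microRNA that is often low in glioblastoma, alters total RNA and the RNA held by the poly(A)-binding protein PABP. U251 and U343, established astrocytoma and glioblastoma lines, received 25 nM of a miR-137 mimic or of a control mimic by lipofection with RNAiMax and were collected after 48 h, so both arms carried a transfected small RNA. From each line and mimic there were 2 libraries of total RNA (RNASeq) and 2 of RNA precipitated with a mix of antibodies to PABP (RIPSeq), 16 libraries in all. The cDNA was random-primed (EpiScript) for U251 and made with the TotalScript kit for U343, and Nextera kits were then used for both. Line and library kit therefore cannot be told apart. Nothing in the labels says whether the libraries of a group came from separate transfections, so the p-values measure the spread between these libraries, which may be technical.

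The microRNA that was added is shown because its seed, bases 2 to 8 in capitals, is the part that pairs with targets. The sequence is that of RefSeq (GRCh38.p14, chr1:98046091-98046113, minus strand), and the chemistry of the mimic was not given in the sources used here.
hsa-miR-137-3p: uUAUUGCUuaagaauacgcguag
The promoters of the 3 members with the largest rises described below, PSMB10, PSME1 and PSME2, follow, each 250 bases before to 50 bases after the start of the gene (RefSeq, GRCh38.p14). Capitals mark the match to GAAANNGAA, the core of the interferon-stimulated response element, on either strand. PSMB10 lies at chr16:67936801-67937100 on the minus strand, PSME1 at chr14:24135944-24136243 on the plus strand and PSME2 at chr14:24146561-24146860 on the minus strand.
PSMB10: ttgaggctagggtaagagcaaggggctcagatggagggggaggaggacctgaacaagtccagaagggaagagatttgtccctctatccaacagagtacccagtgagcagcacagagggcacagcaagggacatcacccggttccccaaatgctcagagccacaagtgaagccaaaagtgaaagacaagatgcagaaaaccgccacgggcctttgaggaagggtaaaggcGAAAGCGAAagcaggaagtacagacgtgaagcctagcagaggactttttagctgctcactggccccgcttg
PSME1: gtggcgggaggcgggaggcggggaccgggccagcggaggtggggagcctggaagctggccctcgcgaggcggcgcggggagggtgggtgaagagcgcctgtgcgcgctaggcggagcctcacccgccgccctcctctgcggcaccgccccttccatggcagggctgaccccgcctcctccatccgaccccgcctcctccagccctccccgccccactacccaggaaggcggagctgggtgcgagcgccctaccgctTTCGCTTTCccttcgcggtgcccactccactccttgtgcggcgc
PSME2: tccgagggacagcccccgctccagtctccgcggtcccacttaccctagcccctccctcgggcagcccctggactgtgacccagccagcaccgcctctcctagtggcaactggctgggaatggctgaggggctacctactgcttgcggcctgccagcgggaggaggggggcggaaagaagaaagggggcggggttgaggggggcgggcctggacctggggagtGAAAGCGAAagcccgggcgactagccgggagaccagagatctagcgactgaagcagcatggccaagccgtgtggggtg
The 9 letters GAAAGCGAA stood 21 bases before the start of PSMB10 and 28 bases before that of PSME2, and in PSME1 the same letters stood on the other strand, 6 bases after the start. Of the 43 genes, 38 had a promoter in the table, and 6 of these (15.8%) held GAAANNGAA on either strand, namely PSMA4, PSMB10, PSMB4, PSMC2, PSME1 and PSME2. Of all 27305 promoters of the same length, 8.3% held it. The other motifs searched were CCGGAAG, an ETS site, in 34.2% of the members and 10.7% of all promoters, and TGANNNNGC, the antioxidant response element core, in 57.9% and 42.1%. The NF-Y box CCAAT was in 47.4% and 35.7%, and TTCNNNGAA, the interferon gamma activated site, in 13.2% and 7.9%. TTCNNNGAA and GAAANNGAA can overlap, since both hold GAA. A match describes the letters only.

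The depth was 10156675 to 18224061 reads in U251 RNASeq, 22359794 to 30731476 in U251 RIPSeq, 37952273 to 45134766 in U343 RNASeq and 37736206 to 45055184 in U343 RIPSeq. Transfection was checked on CDK6, a known miR-137 target, which fell in total RNA of both lines, by 3.53 on the log2 scale in U251 and by 2.78 in U343 (edgeR, adjusted p = 1.62e-09 and 0.00647). Levels are given as CPM, reads per 1000000 reads of the library, scaled by TMM within the 4 libraries of an experiment. Glial and mesenchymal markers summed to 5815 to 16366 CPM, with VIM alone at 3359 to 9844. GFAP, the astrocyte filament, was at 3.28 to 32.8 in U251 against 3186 to 7400 in U343. S100B, a glial marker of the same list, was at 0.18 to 1.77 in U251 and 2.19 to 10.3 in U343. Summed leukocyte markers were at or under 1.03 CPM and summed epithelial markers at or under 0.386 in every library, while summed endothelial markers ranged from 0.306 to 31.6. Fewer cells of a type and less RNA per cell cannot be told apart in such bulk samples.

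In 2 places libraries of a group stood apart. The U343 RNASeq miR-137 replicate 1 lacked the high level of an interferon response gene, chosen after the values were seen, that replicate 2 had: IFIT1 was at 9.73 CPM there and at 1809 in replicate 2, against 13.5 and 13.6 in the controls. MX1, another such gene, was at 4.56 and 10.1, against 9.46 and 9.61. CDK6 was nonetheless low in both of these miR-137 libraries, at 81.3 and 91.6 against 544 and 643 in the controls. In U251 RIPSeq the control libraries differed from each other by a median of 0.47 on the log2 scale over the tested members, while the miR-137 libraries there differed by 0.04. PSMC5, an ATPase of the cap, was the extreme, at 208 and 63.9 CPM in the U251 RIPSeq controls. For some members, values that rest on these libraries are given below with and without them.

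Changes are log2 values, miR-137 minus control, with the standard error of edgeR's fit and n = 2 per group. In U251 RNASeq 40 of the 43 genes had enough reads for the test (edgeR, quasi-likelihood, Benjamini-Hochberg adjusted p under 0.05), and 5 rose (12.5%) and 9 fell (22.5%). Over all genes tested 28.7% rose and 29.0% fell. The median change of the members was -0.18 against 0.02 over all genes. Scaled by library totals alone, the medians were 0.08 and 0.28, so the direction of the members' median turned, and the split became 9 higher and 5 lower. The members' median lay below that of all genes under both scalings. Without miR-137 replicate 2 of U251 RNASeq 15 members fell, and without control replicate 2 the number was 6.

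In U251 RIPSeq none of 40 members passed edgeR's threshold, with 7 at an unadjusted p under 0.05. All genes passed in 0.944% (higher) and 0.263% (lower) of tests. DESeq2 called 3 members higher and 0 lower there. The percentages over all genes beside DESeq2 counts, here and below, are those of edgeR and are no background for them. In U343 RNASeq 0 of 41 rose and 3 fell (7.32%), against 8.31% and 11.7% of all genes, and 8 members had an unadjusted p under 0.05. DESeq2 called 0 and 4 members there. In U343 RIPSeq 7 of 41 rose (17.1%) and 16 fell (39.0%), against 28.5% and 27.8% of all genes, with a median of -0.17 against 0.00. The 16 falls became 6 without control replicate 1, 7 without control replicate 2 and 7 without miR-137 replicate 2.

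**Figure D1:**
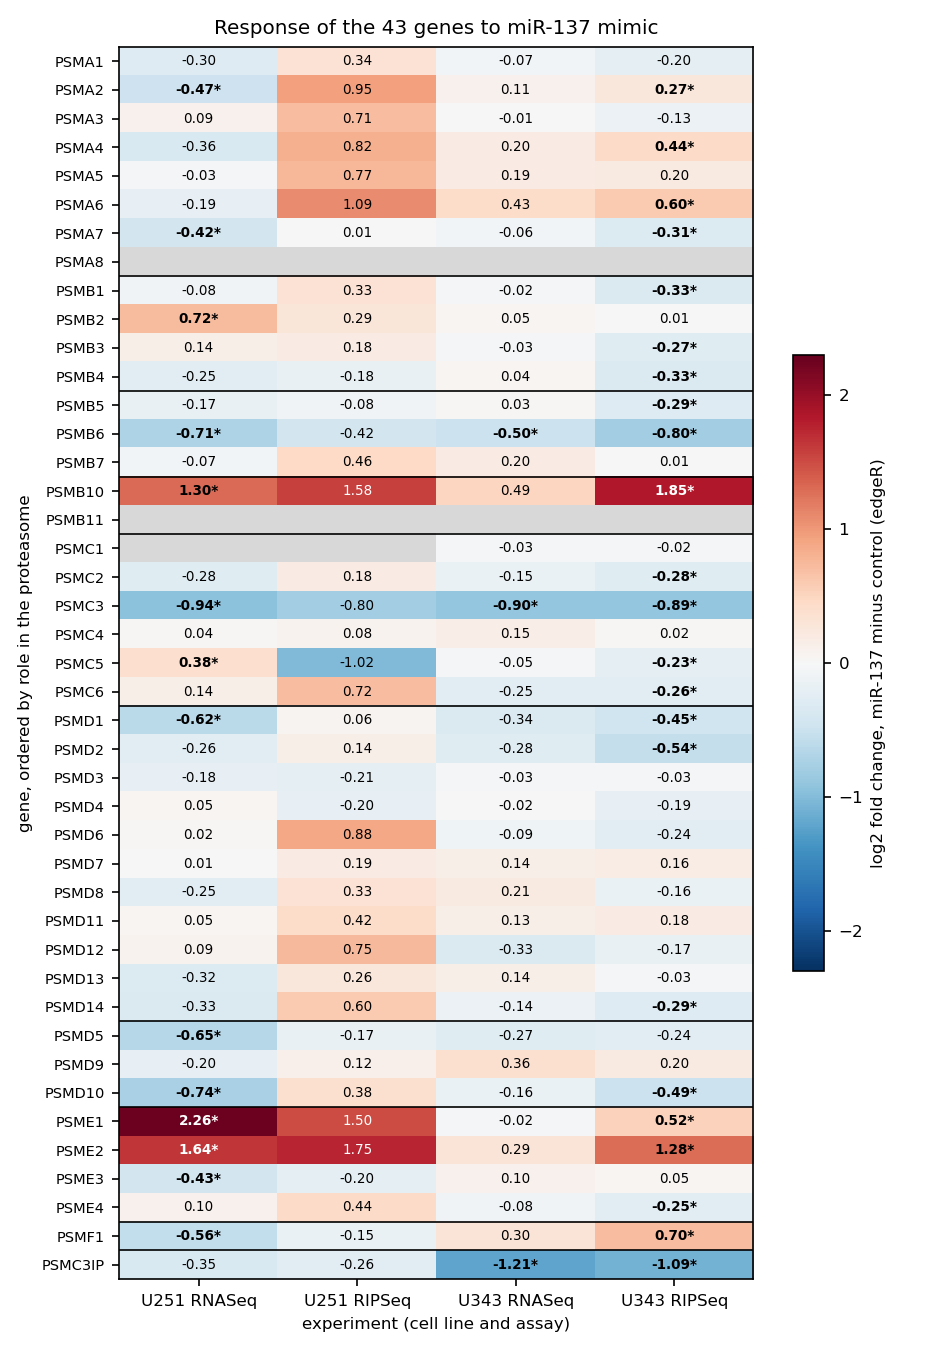
Log2 change, miR-137 minus control, of each of the 43 genes (vertical axis, ordered by role, lines between roles) in the 4 experiments (horizontal axis). Red is higher and blue lower with miR-137, bold values with a star passed edgeR's adjusted p of 0.05, and grey genes had too few reads; PSMB10, PSME1 and PSME2 are red and PSMC3 and PSMB6 blue in most columns.

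The inducible catalytic subunit PSMB10, which takes the place of PSMB7 in the immunoproteasome (hg18, chr16:66525908-66528254, minus strand), rose in U251 RNASeq and U343 RIPSeq. In U251 RNASeq it was at 18.1 and 22.7 CPM in the controls and at 49.0 and 51.5 with miR-137, a log2 change of 1.30 (SE 0.15, edgeR, adjusted p = 7.77e-06). In U343 RIPSeq it went from 33.7 and 34.1 to 120 and 124, a change of 1.85 (SE 0.08, adjusted p = 2.75e-06) or 3.6-fold, which was the largest of any member there. The groups did not overlap in either experiment.

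In U251 RIPSeq PSMB10 was at 19.1 and 10.9 CPM in the controls and at 46.1 and 43.5 with miR-137. The groups did not overlap, yet the change of 1.58 (SE 0.36) missed the threshold (edgeR, adjusted p = 0.127). The change was 2.04 without control replicate 1 and 1.32 without control replicate 2. With 1 control left, the spread in such fits comes from the miR-137 libraries alone, so passing there carries no weight. In U343 RNASeq the controls were at 60.1 and 68.7 and the miR-137 libraries at 47.7 and 134, one below and one above both controls, and the change was 0.49 (SE 0.50, adjusted p = 0.523). Without miR-137 replicate 1 it was 1.05, and without miR-137 replicate 2 it was -0.43.

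PSMB10 can also be set against PSMB7, the constitutive subunit that it replaces, within each library, which needs no scaling between libraries. The log2 ratio of PSMB10 to PSMB7 reads was -3.43 and -3.24 in the U251 RNASeq controls and -1.81 and -2.08 with miR-137. In U343 RIPSeq it was -1.66 and -1.67 against 0.07 and 0.28. The mean log2 ratio rose by 1.39 in U251 RNASeq, 1.17 in U251 RIPSeq and 1.84 in U343 RIPSeq, with no overlap of the groups, and by 0.12 in U343 RNASeq, where the miR-137 libraries were at -1.47 and 0.03 against -0.86 and -0.81. The two-sided exact permutation p was 0.333 in the first 3 and 1 in the last, and 0.333 is the smallest that 2 against 2 libraries can give. Read ratios of different genes are not corrected for length, so only their change is read here.

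The activator subunits PSME1 and PSME2, which together form the PA28 ring that interferon induces, also rose in U251 RNASeq and U343 RIPSeq. PSME1 (hg18, chr14:23675218-23678016, plus strand) had the largest rise of any member in U251 RNASeq, from 58.6 and 59.7 to 253 and 314 CPM, a log2 change of 2.26 (SE 0.14, edgeR, adjusted p = 4.1e-08) or 4.8-fold. In U343 RIPSeq it went from 151 and 144 to 211 and 213, a change of 0.52 (SE 0.08, adjusted p = 0.00129). Both differences exceeded the spread between libraries.

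PSME2, the partner of PSME1 (hg18, chr14:23682414-23685695, minus strand), rose in U251 RNASeq from 50.0 and 58.8 to 163 and 176 CPM, a log2 change of 1.64 (SE 0.13, edgeR, adjusted p = 4.11e-07). In U343 RIPSeq it rose from 106 and 105 to 260 and 252, a change of 1.28 (SE 0.08, adjusted p = 1.8e-05). No library of one group reached the other in either experiment. PSME2 has 6 pseudogenes by symbol, and how reads shared with such copies were counted was not given in the sources used here.

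In U251 RIPSeq both activator subunits were above both controls without passing the test. PSME1 was at 97.1 and 129 against 307 and 333 CPM, a 2.83-fold difference (edgeR, adjusted p = 0.0809), and PSME2 at 93.9 and 61.0 against 248 and 271, a change of 1.75 (SE 0.30, adjusted p = 0.0856). PSME1, PSME2 and PSMB10 were the 3 genes that DESeq2 called there. Without control replicate 1 or 2 the change was 1.31 or 1.81 for PSME1 and 2.09 or 1.56 for PSME2. In U343 RNASeq PSME1 was at 131 and 142 in the controls and 100 and 169 with miR-137, a change of -0.02 (SE 0.27, adjusted p = 0.963). PSME2 was at 71.1 and 70.7 against 61.9 and 112, a change of 0.29 (SE 0.29, adjusted p = 0.524). Without miR-137 replicate 1 these became 0.30 and 0.65, and without miR-137 replicate 2 -0.45 and -0.20.

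The other 2 activators, nuclear PSME3 (PA28 gamma) and PSME4 (PA200), did not follow PSME1 and PSME2. PSME3 fell in U251 RNASeq, from 243 and 262 to 179 and 197 CPM, a log2 change of -0.43 (SE 0.13, edgeR, adjusted p = 0.0126), a call that was lost at -0.38 without control replicate 2 and at -0.16 under library totals alone. PSME4 fell in U343 RIPSeq, from 61.6 and 55.2 to 49.7 and 48.5, by 0.25 (SE 0.09, adjusted p = 0.0395), and lost the call at -0.17 to -0.27 without control replicate 1 or either miR-137 library. In the remaining experiments neither passed, though in U251 RNASeq PSME4 passed at 0.40 without miR-137 replicate 2 and was at -0.27 without replicate 1.

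PSMF1, known as the proteasome inhibitor PI31 (hg18, chr20:1041906-1096426, plus strand), moved in opposite directions in the experiments. In U251 RNASeq it fell from 122 and 130 to 82.0 and 88.7 CPM, a log2 change of -0.56 (SE 0.13, edgeR, adjusted p = 0.00177), not past the threshold at -0.30 under library totals alone. In U343 RIPSeq it rose from 88.1 and 92.4 to 143 and 151, a change of 0.70 (SE 0.08, adjusted p = 0.000284). In U343 RNASeq the controls at 63.6 and 57.8 lay below both miR-137 libraries at 66.0 and 83.2, and the change of 0.30 (SE 0.15, adjusted p = 0.218) passed at 0.45 without miR-137 replicate 1. In U251 RIPSeq it was at 157 and 141 against 132 and 136 and did not pass.

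**Figure D2:**
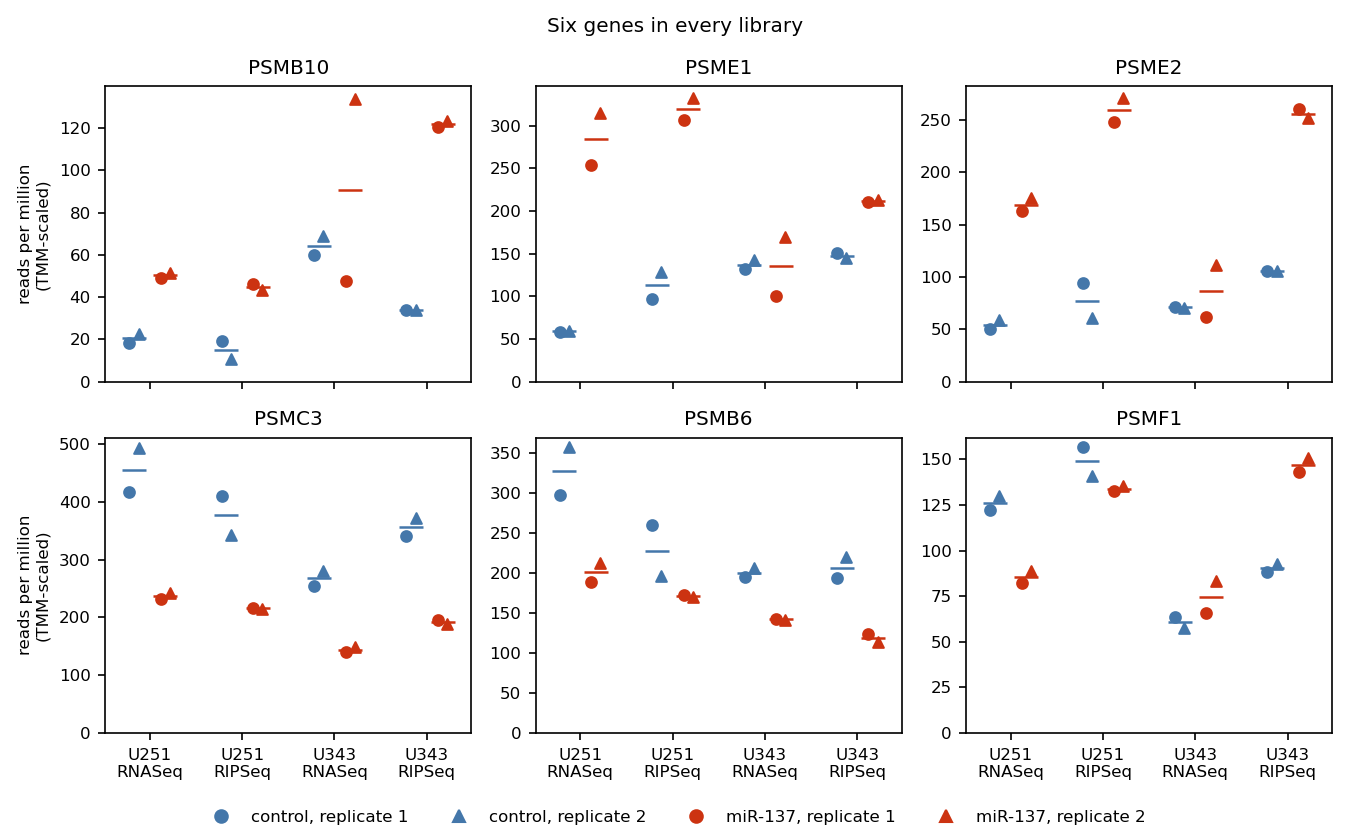
TMM-scaled CPM (vertical axes, starting at 0) of PSMB10, PSME1, PSME2, PSMC3, PSMB6 and PSMF1 in each of the 16 libraries, by experiment (horizontal axes). Circles and triangles are replicates 1 and 2, blue is control and red miR-137, and bars are means of 2; the red points of PSMB10, PSME1 and PSME2 fall on both sides of the controls in U343 RNASeq and above them elsewhere, while those of PSMC3 and PSMB6 lie below in all 4 experiments.

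PSMC3 and PSMB6 were the 2 members that fell past the threshold in 3 of the 4 experiments. Among all genes 29.0% fell in U251 RNASeq, 11.7% in U343 RNASeq and 27.8% in U343 RIPSeq. Falls in all 3 were not counted over all genes. PSMC3, an ATPase of the 19S cap (hg18, chr11:47396896-47404600, minus strand), went from 417 and 494 to 232 and 242 CPM in U251 RNASeq, a log2 change of -0.94 (SE 0.14, edgeR, adjusted p = 7.2e-05). In U343 RNASeq it went from 255 and 281 to 140 and 148, a change of -0.90 (SE 0.10, adjusted p = 0.0122), and in U343 RIPSeq from 341 and 372 to 196 and 189, a change of -0.89 (SE 0.09, adjusted p = 0.000167). In U251 RIPSeq the controls at 410 and 343.1 also lay above 216 and 215 with miR-137, and the change of -0.80 did not pass (adjusted p = 0.155). It passed in 1 fit to all 8 U251 libraries (-0.84, edgeR, adjusted p = 0.0257). Without control replicate 1 or 2 the U251 RIPSeq change was -0.67 or -0.84. The fit to all 8 libraries kept the U251 RNASeq calls of PSMC3, PSMB10, PSME1 and PSME2 (edgeR, adjusted p = 0.0008 to 0.0193). It lost those of PSMB6, PSMF1, PSME3, PSMD10, PSMA2 and PSMC5 (adjusted p = 0.0614 to 0.579). Scaled by TMM, the 4 PSMC3 changes lay between -0.94 and -0.80, and both U343 RNASeq miR-137 libraries were low. Under library totals alone the PSMC3 change was -0.68 in U251 RNASeq, -0.74 in U251 RIPSeq and -0.93 in U343 RNASeq.

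PSMB6, which carries the caspase-like cutting site (hg18, chr17:4646415-4648748, plus strand), went from 298 and 358 to 189 and 213 CPM in U251 RNASeq, a log2 change of -0.71 (SE 0.14, edgeR, adjusted p = 0.000797). In U343 RIPSeq it went from 193 and 220 to 124 and 113, a change of -0.80 (SE 0.10, adjusted p = 0.000397). The U343 RNASeq values of 195 and 207 against 143 and 142 gave -0.50 (SE 0.09, adjusted p = 0.031). Both U343 RNASeq calls rested on having both controls: without either one, PSMC3 had adjusted p of 0.162 and 0.19 and PSMB6 of 0.243 and 0.295, and PSMB6 had 0.0625 with the replicate number as a block. In U251 RIPSeq PSMB6 was at 260 and 197 against 173 and 170, without overlap and not past the threshold (change -0.42, SE 0.25, edgeR, adjusted p = 0.42). Without control replicate 1 or 2 its change was -0.21 or -0.51.

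The other cutting-site subunits of the core had 1 call between them. PSMB5, with the chymotrypsin-like site, fell in U343 RIPSeq from 142 and 150 to 126 and 113 CPM, a log2 change of -0.29 (SE 0.09, edgeR, adjusted p = 0.0279), and lost the call at -0.22 to -0.34 without either control or miR-137 replicate 2. PSMB7 passed in no experiment, with changes of -0.07, 0.46, 0.20 and 0.01 in U251 RNASeq, U251 RIPSeq, U343 RNASeq and U343 RIPSeq. The U251 RIPSeq change was 0.37 without control replicate 1 and 0.65 without control replicate 2.

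Among the 4 structural beta subunits, PSMB1 to PSMB4, the calls were 1 higher in U251 RNASeq and 3 lower in U343 RIPSeq. Over all genes 28.7% were higher in the first and 27.8% lower in the second. PSMB2 rose in U251 RNASeq from 190 and 166 to 279 and 307 CPM, a log2 change of 0.72 (SE 0.13, edgeR, adjusted p = 0.000468). PSMB1, PSMB3 and PSMB4 fell in U343 RIPSeq by 0.33, 0.27 and 0.33. PSMB2 itself did not pass there (0.01).

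Of the 7 alpha subunits with enough reads, which form the outer rings and the gate of the core, 2 fell in U251 RNASeq and 3 rose and 1 fell in U343 RIPSeq. Over all genes 29.0% fell in U251 RNASeq, and 28.5% rose and 27.8% fell in U343 RIPSeq. The rises in U343 RIPSeq were those of PSMA6, from 147 and 134 to 224 and 203 CPM, of PSMA4, from 200 and 184 to 275 and 246, and of PSMA2, from 147 and 152 to 187 and 173. Their log2 changes were 0.60, 0.44 and 0.27 (SE 0.10, 0.10 and 0.09, edgeR, adjusted p = 0.00125, 0.00659 and 0.0311). PSMA7 fell both there and in U251 RNASeq, by 0.31 and 0.42 (adjusted p = 0.0355 and 0.0299).

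PSMA2 also fell in U251 RNASeq, from 359 and 410 to 242 and 313 CPM, a log2 change of -0.47 (SE 0.15, edgeR, adjusted p = 0.0168), so that its 2 calls had opposite signs. Its U343 RNASeq change of 0.11 did not pass, and was 0.37 without miR-137 replicate 1 and -0.23 without replicate 2. The U251 RNASeq fall was not past the threshold at -0.38 without control replicate 2, at -0.29 without miR-137 replicate 1 or at -0.20 under library totals alone. Nor was the U343 RIPSeq rise at 0.21 to 0.29 without either control or miR-137 replicate 1 of that experiment.

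The 19S ATPases other than PSMC3 form with it the ring that unfolds substrates. In U343 RIPSeq PSMC2, PSMC5 and PSMC6 also fell, by 0.28, 0.23 and 0.26 on the log2 scale (edgeR, adjusted p = 0.0391, 0.0345 and 0.0246), while PSMC1 and PSMC4 did not pass. PSMC5 had risen in U251 RNASeq, from 57.2 and 44.7 to 61.8 and 71.0 CPM, a change of 0.38 (SE 0.15, adjusted p = 0.0389). The U251 RNASeq call was lost with DESeq2 (0.38) and without control replicate 2 (0.21) or miR-137 replicate 2 (0.28), and the U343 RIPSeq call without any 1 of the 4 libraries (-0.26 to -0.21). PSMC5 overlaps FTSJ3 over 222 bases in hg18 and PSMC2 overlaps SLC26A5, and whether counting used strand was not given in the sources used here.

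Of the 11 non-ATPase subunits of the cap, 1 fell in U251 RNASeq and 3 fell in U343 RIPSeq, and none rose. Among all genes 29.0% and 27.8% fell, so these falls were no more frequent than elsewhere. PSMD1, a scaffold subunit, was the one that fell in both, from 317 and 348 to 213 and 219 CPM in U251 RNASeq (log2 change -0.62, SE 0.13, edgeR, adjusted p = 0.00115) and from 180 and 176 to 134 and 127 in U343 RIPSeq (-0.45, adjusted p = 0.00258). It overlaps HTR2B. PSMD2, the other large scaffold, fell in U343 RIPSeq from 665 and 674 to 462 and 456 (-0.54, SE 0.10, adjusted p = 0.00237), and PSMD14, the deubiquitinase of the cap, fell by 0.29 (adjusted p = 0.0235).

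The assembly factors PSMD5, PSMD9 and PSMD10 act as chaperones of the ATPase ring. In U251 RNASeq PSMD10 fell from 105 and 125 to 58.0 and 79.9 CPM (log2 change -0.74, SE 0.16, edgeR, adjusted p = 0.00136) and PSMD5 from 153 and 147 to 94.2 and 96.9 (-0.65, SE 0.12, adjusted p = 0.000527). PSMD10 fell in U343 RIPSeq as well, from 65.8 and 65.1 to 47.7 and 45.3, a change of -0.49 (adjusted p = 0.00122). PSMD9 passed nowhere.

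PSMC3IP, the gene that is not a subunit (hg18, chr17:37977855-37983273, minus strand), fell in U343 from 48.7 and 52.4 to 19.6 and 24.1 CPM in RNASeq and from 64.9 and 59.4 to 28.8 and 29.4 in RIPSeq. The log2 changes were -1.21 (SE 0.14, edgeR, adjusted p = 0.0121) and -1.09 (SE 0.09, adjusted p = 3.86e-05), the largest falls of any member in U343. The RNASeq call was lost without control replicate 1 or 2 (-1.25 and -1.16). In U251 its levels of 8.38 to 14.6 gave changes of -0.35 in RNASeq and -0.26 in RIPSeq that did not pass. The first was -0.73 without miR-137 replicate 2 and -0.04 without miR-137 replicate 1. The second was -0.33 without control replicate 1 and -0.09 without control replicate 2. It shares 893 bases with the neighbouring MLX in hg18.

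Over the 4 experiments, 6 members were higher in at least 1 and lower in none (PSMA4, PSMA6, PSMB2, PSMB10, PSME1 and PSME2), 17 were lower in at least 1 and higher in none, and 3 had calls in both directions (PSMA2, PSMC5 and PSMF1). A further 15 passed in none. The same pattern was not counted over all genes, so these numbers do not set the members apart from other genes. In U251 RNASeq 28.7% of all genes rose and 29.0% fell, and in U343 RIPSeq 28.5% and 27.8%. PSMA8, a testis form of PSMA7, and PSMB11, of the thymus cortex, had at most 11 and 9 reads in any library and were not tested. The numbers called in U343 RNASeq and U251 RIPSeq depended on single libraries. A fit with 1 library in an arm assumes that it varies as those of the other arm do. The numbers from such fits, given in the last section, are not read as a result about the members.

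The study's criterion for genes that miR-137 lowers was applied next, in a two-sided form extended here to genes that rise: Fisher's exact test on the reads of each control and each miR-137 library, in which each of the 4 pairs had to show an odds ratio above 2 with an adjusted p below 0.001. It compares libraries rather than conditions. It named PSMB10, PSME1 and PSME2 as higher in U251 RNASeq and no member as lower, where 6.14% and 2.21% of all genes met it. In U251 RIPSeq it named the same 3 as higher and none as lower, against 3.47% and 1.49% of all genes, and 12 members met it as higher there without control replicate 2. In U343 RIPSeq PSMB10 and PSME2 were higher and none lower, against 4.83% and 3.4%, and in U343 RNASeq none was higher and only PSMC3IP lower, against 1.51% and 2.88%. PSMC3 fell short of the odds ratio, which was taken on library totals without TMM. Its ratio was 1.44 to 1.77 over the 4 pairs in U251 RNASeq and 1.82 to 1.98 in U343 RNASeq.

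The 2 U343 RNASeq miR-137 libraries were also compared gene by gene. Replicate 2 exceeded replicate 1 by more than 0.5 on the log2 scale in 6 of the 41 members tested (14.6%), namely PSMB10 (1.48), PSME2 (0.85), PSME1 (0.76), PSMA2 and PSMA4 (0.60 each) and PSMA3 (0.59), and fell short by as much in 0. Over all 15088 genes tested, 10.1% lay above and 6.37% below, so the members' share beyond 0.5 in either direction was near that of all genes. Of the members, 33 of 41 differed by at most 0.3, PSMC3 and PSMB6 among them. IRF1, an interferon-induced transcription factor chosen after the values were seen, was at 64.5 and 405 CPM in these libraries against 78.7 and 80.8 in the controls. In U343 RIPSeq, where PSMB10 rose in both libraries, IRF1 was at 71.5 and 70.6 in the controls and at 323 and 325 with miR-137. MX1 was at 6.96 and 7.89 in these controls and at 8.42 and 9.34 with miR-137. Of the 3 interferon response genes described here, IRF1, IFIT1 and MX1, 3 rose in U251 RNASeq, 2 in U251 RIPSeq, 0 in U343 RNASeq and 2 in U343 RIPSeq. Over all genes 28.7%, 0.944%, 8.31% and 28.5% rose in these experiments. Whether the 3 interferon response genes have a part in the members' values was not tested.

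**Figure D3:**
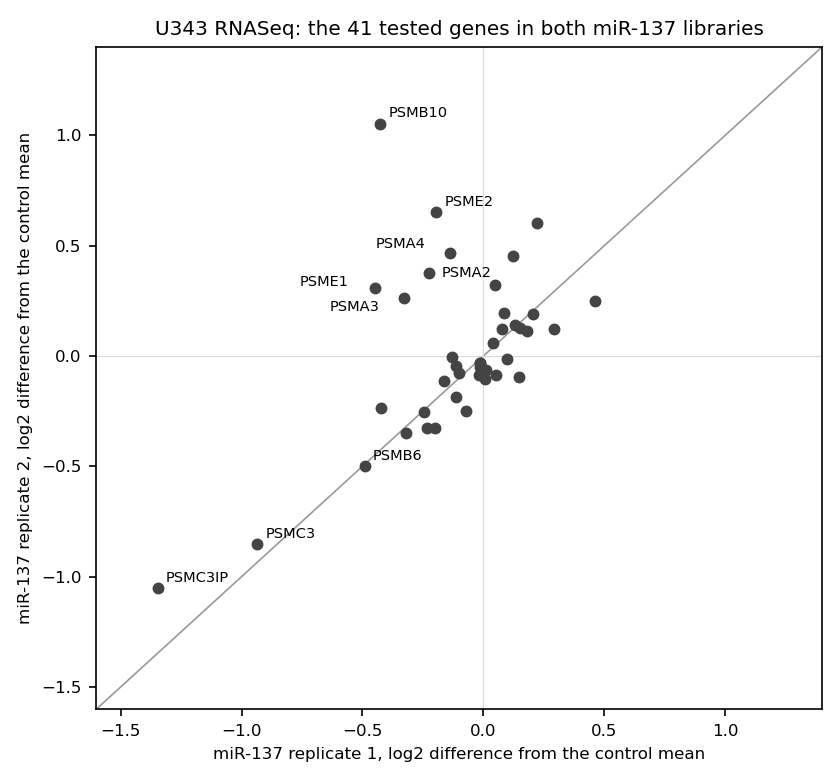
Log2 difference from the mean of the controls in U343 RNASeq, miR-137 replicate 1 on the horizontal and replicate 2 on the vertical axis, for the 41 tested members (points), with the line of equal values. Of the points, 33 lie within 0.3 of the line, PSMC3IP, PSMC3 and PSMB6 at its lower end, and PSMB10, PSME2, PSME1 and 3 alpha subunits lie above it.

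Whether the response differed between the lines was tested as an interaction of transfection and line. In RNASeq 5 of 41 members passed (12.2%), against 25.2% of all genes. With U343 minus U251 as the direction, PSME1 (-2.29, SE 0.32), PSME2 (-1.35, SE 0.34) and PSMB2 (-0.68, SE 0.17) differed downward (edgeR, adjusted p = 0.00269, 0.0221 and 0.0232). PSMF1 (0.85, SE 0.19) and PSME3 (0.52, SE 0.16) differed upward (adjusted p = 0.0154 and 0.046), both having fallen in U251 and having changed by 0.30 and 0.10, not past the threshold, in U343. PSMB10 did not differ past the threshold (-0.81, adjusted p = 0.316). The line also stands for the kit here.

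Without the U343 RNASeq miR-137 replicate 1 the difference was -1.96 for PSME1, -0.99 for PSME2, 1.01 for PSMF1 and -0.25 for PSMB10. Leaving out any 1 of the U251 RNASeq libraries or either U343 RNASeq control lost PSME2 (-1.22 to -1.47), and 5 of these 6 libraries lost PSMB2 (-0.53 to -0.69). PSME3 was lost without 5 of them (0.47 to 0.59) and PSMF1 without control replicate 2 of U251 (0.81) or of U343 (0.78). Under library totals alone PSMF1 (0.56) and PSME3 (0.23) did not pass. In RIPSeq 0 of 41 members passed with edgeR, where 3.28% of all genes did. There 9 members had an unadjusted p under 0.05, the smallest adjusted p was 0.07, and DESeq2 called 3.

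An interaction of transfection and assay asked whether total and PABP-bound RNA responded differently. In U251 0 of 41 members passed, with 5 at an unadjusted p under 0.05, and 0.134% of all genes passed (edgeR). In U343 0 of 41 passed, with 4 at an unadjusted p under 0.05, against 0.00649% of all genes. No member's change was thus shown to differ between the assays, although more members were called in U343 RIPSeq than in U343 RNASeq. DESeq2 also called 0 in both lines. Members did pass without a U251 RIPSeq control, or without U343 RNASeq miR-137 replicate 2, in fits that leave 1 library in a group.

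PABP-bound RNA was set against total RNA in the control libraries to see how much of each member's RNA the precipitate held relative to other genes. CPM here and in the comparison of the lines were scaled over the 4 control libraries compared, so they differ slightly from those above. In U343, 22 of 41 members were higher in PABP-bound RNA (53.7%) and 4 lower (9.76%), against 24.4% and 24.2% of all genes, with a median log2 difference of 0.25 against -0.02. All 3 assembly factors, 6 of 11 non-ATPase subunits and 3 of 4 activators were among those higher. PSME3 rose most, from a mean of 53.0 CPM in total RNA to 105 in PABP-bound RNA (log2 difference 0.98, SE 0.08, edgeR, adjusted p = 9.72e-05).

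PSMB4 (from 411 to 760, log2 difference 0.88, edgeR, adjusted p = 0.000209) and PSMC4 (from 167 to 283, 0.76, adjusted p = 0.000252) came next in U343. At the other end PSMA7 went from 359 to 198 (-0.86, adjusted p = 0.000309) and PSMB10 from 62.3 to 35.3 (-0.82, adjusted p = 0.000309). PSMC6 and PSMD1 were lower by 0.21 each (adjusted p = 0.0408 and 0.0496), and with any 1 of the 4 libraries left out 2 members were lower. In U251, whose RIPSeq controls differ, 0 of 40 members passed in either direction with edgeR, against 7.87% and 6.14% of all genes, with 5 at an unadjusted p under 0.05. DESeq2 called 3 higher and 2 lower.

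The lines were also compared without miR-137. In control total RNA 11 of 41 members were higher in U343 than in U251 (26.8%) and 24 lower (58.5%), against 44.9% and 39.9% of all genes, with a median log2 difference of -0.50 against 0.10. Within the core, 6 of 7 alpha, all 4 structural beta and all 3 constitutive catalytic beta subunits were lower in U343, and none of these was higher. The inducible beta subunit PSMB10 was higher, as given below. Of the non-ATPase subunits 5 were higher and 4 lower. The largest differences downward were PSMD5 (-2.60, edgeR, adjusted p = 5.14e-08), PSME3 (-2.15, 6.39e-08) and PSME4 (-2.14, 7.1e-08).

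PSMB10 was higher in the U343 than in the U251 controls by 1.71 (edgeR, adjusted p = 2.1e-06), PSME1 was higher by 1.26 (adjusted p = 1.47e-06) and PSME2 by 0.44 (adjusted p = 0.00275). PSMC3IP was higher by 1.92 (adjusted p = 3.95e-07). These comparisons share the control libraries with the responses above.

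PSMC1, an ATPase of the cap, differed most, at 0.688 CPM (SD 0.319) in U251 and 150 (SD 13.5) in U343, a log2 difference of 7.77 (SE 0.20, edgeR, adjusted p = 5.74e-09). It had 5 to 15 reads in each of the 8 U251 libraries and 5216 to 6584 in each of the 8 U343 libraries. The gene has 13 pseudogenes by symbol, the lines were prepared with different kits, and the part of either in this difference was not tested.

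**Figure D4:**
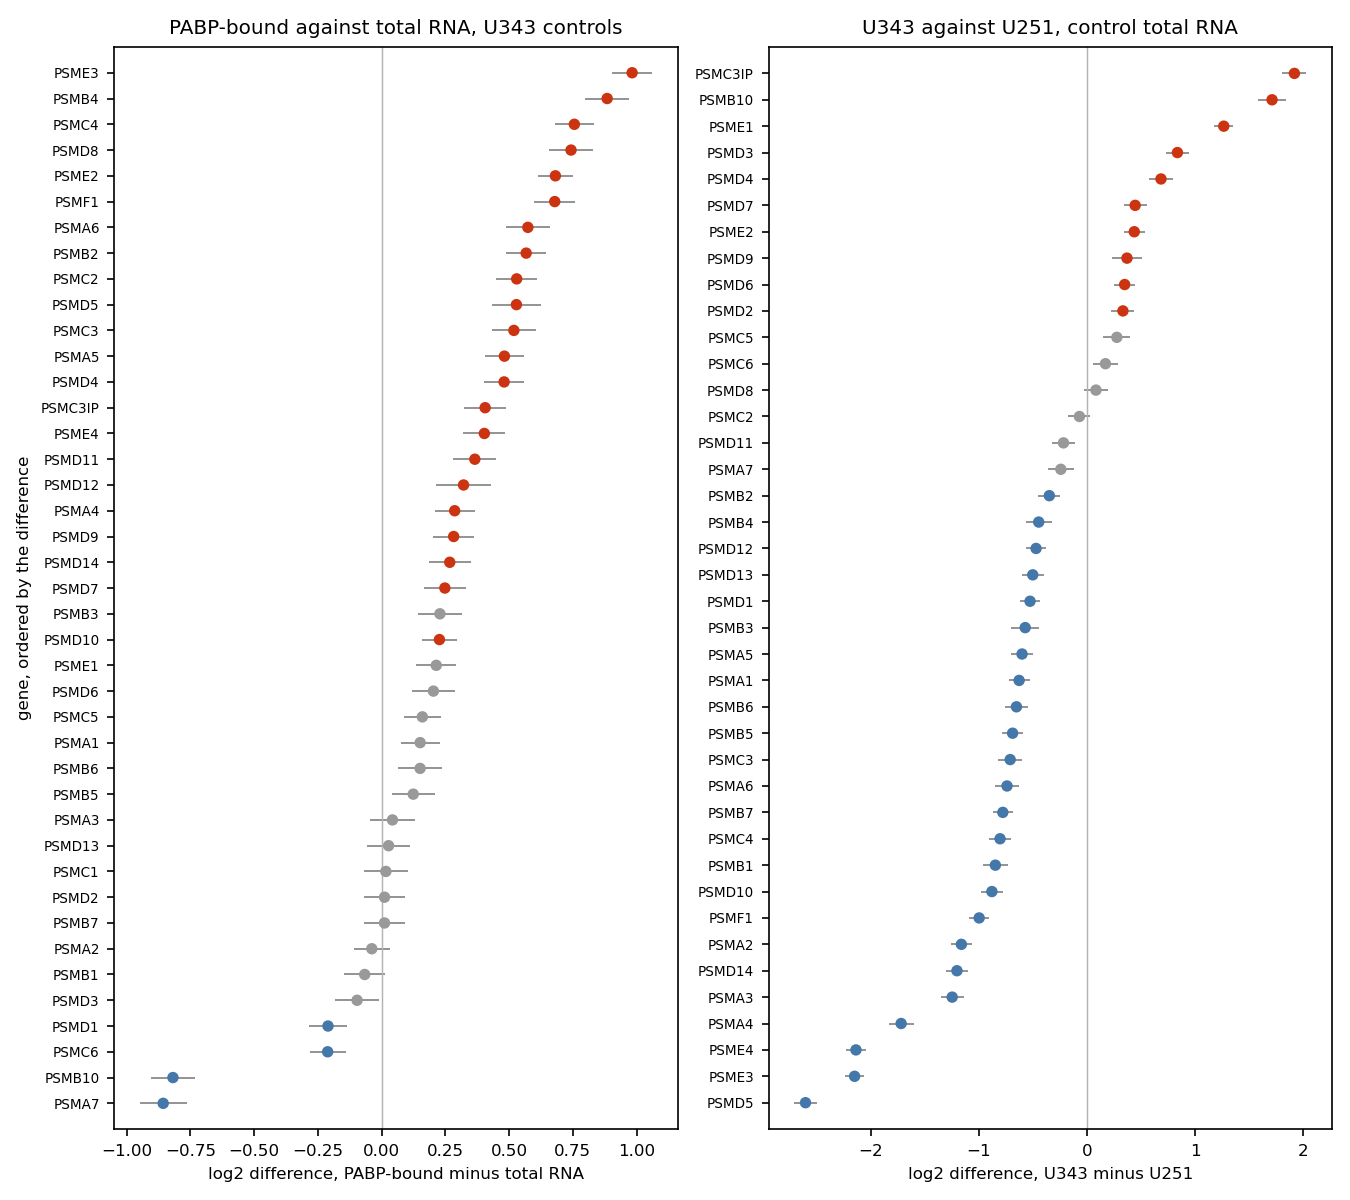
Log2 differences (horizontal axes) of the tested members (vertical axes, ordered by value) between PABP-bound and total RNA in U343 controls (left, 41 members) and between U343 and U251 in control total RNA (right, with PSMC1 at 7.77 left out). Points are edgeR estimates with bars of 1 SE, red higher and blue lower past the adjusted p of 0.05 and grey not past; PSME3 and PSMB4 lead on the left, and PSMC3IP, PSMB10 and PSME1 on the right.

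The 33 other genes of the ubiquitin and proteasome pathway, listed without PSMB8 and PSMB9, had enough reads. Of these, 7 rose and 5 fell in U251 RNASeq, 0 and 0 in U251 RIPSeq, 3 and 2 in U343 RNASeq and 8 and 8 in U343 RIPSeq. Among all genes 28.7% rose and 29.0% fell in U251 RNASeq, 8.31% and 11.7% in U343 RNASeq and 28.5% and 27.8% in U343 RIPSeq. The 6 assembly chaperones outside the rule had no call in total RNA of either line and 1 in each direction in U343 RIPSeq. Among the 6 genes that control proteasome transcription, 4 rose and 1 fell in U251 RNASeq, 2 rose in U343 RNASeq and 4 rose in U343 RIPSeq. The genes named next were chosen after their values were seen. NFE2L1, the factor that raises proteasome subunit genes when the protease is impaired, rose by 1.00, 0.49 and 0.46 on the log2 scale in those 3 experiments (edgeR, adjusted p = 2.53e-05, 0.0331 and 0.0124). In U251 RIPSeq its change was -0.42 and did not pass (adjusted p = 0.541).

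MAFK, a small Maf partner of such factors, rose by 1.31, 1.31 and 1.44 in U251 RNASeq, U343 RNASeq and U343 RIPSeq (edgeR, adjusted p = 5.31e-06, 0.00647 and 3.63e-05), with 0.06 in U251 RIPSeq (adjusted p = 0.961). UBE3C, a ubiquitin ligase that binds the proteasome, fell by 1.29, 1.21 and 1.16 (adjusted p = 2.65e-06, 0.0104 and 2.13e-05). In U251 RIPSeq it went from a mean of 233 CPM to 119, a change of -0.96 that did not pass (adjusted p = 0.193). The proteasome-bound deubiquitinase USP14 rose in U251 RNASeq by 0.90 (adjusted p = 9.66e-05) and fell in U343 RIPSeq by 0.24 (adjusted p = 0.0364), and did not pass in U251 RIPSeq (0.00) or U343 RNASeq (0.02).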

How the data were processed

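Total RNA (RNASeq) and PABP-bound RNA (RIPSeq) of U251 and U343 cells were sequenced by the authors, who aligned reads to hg18 with RMAP and deposited raw read counts per RefSeq gene, with the isoforms of a gene collapsed into 1 super-transcript. Whether reads that map to several places or on the opposite strand were counted was not given in the sources used here. Reads without molecular identifiers are not independent molecules.

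Counts were tested with edgeR 4.0.16 (R 4.3.3; filterByExpr with its count minimum of 10, TMM, quasi-likelihood, Benjamini-Hochberg over all genes tested, threshold 0.05), separately for each experiment of 2 against 2 libraries, and as interactions over 8 libraries. The total per library ranged from 10156675 to 45134766 reads, and 2 libraries per group limit the precision. The criterion of the study and permutation tests were run with SciPy 1.17.1 in Python 3.11.15. Alternatives were DESeq2 1.42.0, upper-quartile scaling, library totals, no filter, a mean of at least 50 reads, the replicate number as a block, 1 fit to all 8 libraries of a cell line, U343 thinned to the U251 depth and each library left out. The scripts' statistics were tested on simulated data.

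The genes named with values are the catalytic and inducible beta subunits, activators, inhibitor and non-subunit, and the 3 largest changes in each direction per experiment. They also include genes with opposite calls, with interactions, with the 3 largest differences by PABP binding or line, or with too few reads. Other members are named to account for the calls of their role. The members and lists were chosen with earlier results of these data known. A second row for SLC35E2 in the U251 tables was dropped, and PSMB8, PSMB9 and an additional U251 replicate of the methods were not analysed here. Gene coordinates are those of the files (hg18).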

Additional observations from a re-analysis of the deposited data

Results flagged for a closer look

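In total RNA the response to miR-137 differed between U343 and U251 for 5 of the 41 proteasome genes tested (12.2%), by edgeR's interaction test, against 25.2% of all genes. The U343 miR-137 libraries disagreed, with PSME1 at 100 and 169 CPM and PSME2 at 61.9 and 112. As given above, most of these calls were lost when single libraries were left out. The log2 response in U343 minus that in U251 was -2.29 for PSME1, -1.35 for PSME2, -0.68 for PSMB2, 0.85 for PSMF1 and 0.52 for PSME3. The lines also differ in library kit, which cannot be told apart from the line in this design. With U343 RNASeq thinned to the U251 depth its log2 changes were -0.01 for PSME1, 0.31 for PSME2, 0.26 for PSMF1 and 0.15 for PSME3, against -0.02, 0.29, 0.30 and 0.10 at full depth. These are changes within U343, and the interaction was not refitted at that depth.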

How the results depend on the processing

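In U251 RNASeq library totals alone gave 9 members higher, 5 lower and a median of 0.082 (all genes 0.28), and the joint fit of the line 1 lower. In U251 RIPSeq DESeq2 gave 3 higher, the joint fit 4 higher and 1 lower, and the median was 0.19 with upper-quartile scaling, 0.34 with library totals and 0.34 with no filter. The joint fit gave 1 higher and 6 lower in U343 RNASeq and 4 higher in U343 RIPSeq, where no filter gave 9 lower. For PABP-bound against total RNA, DESeq2 gave 3 higher and 2 lower and library totals 1 lower in U251, and DESeq2 2 lower in U343. DESeq2 gave 3 line interactions in RIPSeq. Under the study's criterion an odds ratio over 1.5 gave 6 higher in U251 RIPSeq, 2 lower in U343 RNASeq and 3 lower in U343 RIPSeq, where 3 of 4 pairs, or TMM-scaled totals, gave 1 lower. Thinning U343 to the U251 depth kept the counts at 0 and 3 in RNASeq and 7 and 16 in RIPSeq. The causes were not tested.

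With each library left out in turn, U251 RNASeq had 4 to 5 members higher and 6 to 15 lower, U251 RIPSeq 0 to 28 and 0 to 8 (median 0.25 to 0.44), U343 RNASeq 0 to 8 and 0 to 7 (median -0.086 to 0.066) and U343 RIPSeq 5 to 7 and 6 to 15 (median -0.22 to -0.10). The medians in U251 RNASeq were -0.29 to -0.087. PABP-bound RNA had 0 to 8 higher and 0 to 16 lower in U251 and 15 to 19 and 2 in U343. Interactions numbered 0 to 24 (assay, U251), 0 to 7 (assay, U343), 1 to 11 (line, RNASeq) and 0 to 26 (line, RIPSeq), and between the lines 8 to 11 were higher and 22 to 25 lower. The study's criterion gave 3 to 4 higher in U251 RNASeq, 3 to 12 higher and 0 to 1 lower in U251 RIPSeq and 0 to 1 lower in U343 RIPSeq. Among values past the threshold with or without the library, the direction turned for PSMB5 in U251 RIPSeq without control 1 (0.21, and -0.24 without control 2), for PSME1 in U343 RNASeq without miR-137 replicate 1 (0.30, and -0.45 without replicate 2) and for PSMB10 there without miR-137 replicate 2 (-0.43, and 1.05 without replicate 1). Fits with 1 library in an arm assume that it varies like the others. No share over all genes stands beside these counts, so they describe the fits and not the members as a set.

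With the replicate number as a block, the calls were 5 higher and 14 lower in U251 RNASeq, 3 and 0 in U251 RIPSeq, 0 and 2 in U343 RNASeq and 8 and 18 in U343 RIPSeq. For PABP-bound against total RNA they were 1 higher and 3 lower in U251 and 2 lower in U343. Deviations of same-numbered libraries had correlations over all genes of 0.05, -0.04, 0.13 and 0.37 in these 4 experiments, over 2 pairs each, and the labels give no shared origin, so the numbers only name libraries. Of the values for single genes under all alternatives, 1342 kept direction and side of the threshold, 72 changed sign without passing it in either setting, 84 came to pass it, 79 no longer passed and 3 reversed.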
